A study of Mus musculus with 28 samples.

Results

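The transcripts of the matrix metalloproteinases (Mmp genes), the secreted ADAMTS proteases (Adamts genes) and the tissue inhibitors of metalloproteinases (Timp genes) were followed through the closure of a mouse skin wound. The members were all rows of the deposited count table whose symbol is Mmp, Adamts or Timp with a number (and a or b for Mmp). This gave 46 genes of 29068, made up of 23 Mmp, 19 Adamts and 4 Timp genes. RNA was sequenced from wound-site skin in 28 libraries, 4 on each of days 0, 3, 5, 7, 10, 12 and 14, all labelled C57BL/6J and natural wound healing. The methods describe 8-week-old MLKL+/+ littermates, with both sexes used in the study and no sex given for these libraries, individually housed, with a 6-mm punch excision on the back down to the fascia, from which the entire wound site with scab and epithelial margins was taken. Xist, a transcript of females, was nearly absent, at 0 to 13 counts in every library. As labelled, the groups shared genotype and treatment and differed in the day. The first day is Day0, the control, in the labels and day 1, the day of injury, in the methods. It is called day 0 here. The labels speak of 5 repeats a day, and 4 were analysed here. No label says whether the libraries of a day came from separate mice. The p-values thus measure the spread between these libraries, pooled over all days, which may be partly technical.

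Matrix metalloproteinases are zinc proteases that together can cut nearly all proteins of the extracellular matrix, and ADAMTS proteases cut proteoglycans, trim procollagens or act on other matrix proteins. Most are made as inactive proenzymes, some are anchored to the cell membrane, and the 4 TIMP proteins bind the active enzymes and block them. In skin repair they are known for clearing damaged matrix, freeing keratinocytes to migrate and remodelling the new dermis. Transcript levels do not show how much active enzyme was present.

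Levels are given as FPKM (fragments per kilobase of gene length, scaled to the total count of the library), so that genes can be set side by side per length. Lists of 4 values follow the replicate numbers 1 to 4, and a mean is given ± SD with n = 4 libraries. Fold changes are log2 values from edgeR with their SE, later day minus earlier day, and a gene was called when its p adjusted over all 18107 tested genes was under 0.05. A call past the fold limit also needed an absolute log2 fold change above 1.5. Of the 46 members, 40 had enough counts to be tested. The 6 others were Mmp1a, Mmp7, Mmp20, Mmp21, Mmp24 and Adamts13.

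The libraries held 36706513 to 40655764 counts each. Day 0 was the most variable day, with a coefficient of variation between its libraries of 26.4% against 5.70% to 10.8% on the others. The main fit gave each gene a spread shared by all days. It can therefore understate the spread in comparisons with day 0 and overstate it between later days. With the 2 days of a comparison fitted alone, fewer members were called in every comparison with day 0. At day 14 they were 25 instead of 30. More were called in every step between later days, such as 33 instead of 24 at day 12 against day 10. The summed FPKM of 5 fibroblast markers (Col1a2, Pdgfra, Dcn, Lum and Pi16) ranged from 1698 to 6664 among the day 0 libraries, and that of 5 skeletal muscle markers from 9684 to 15523. On the later days the muscle markers summed to between 2131 and 5699. In whole tissue, fewer cells of a type and less RNA per cell cannot be told apart. Strand-specific counting is not stated, and in the GENCODE vM21 annotation exons of Timp3, Timp4, Mmp1b, Mmp7, Mmp11, Mmp12, Mmp19, Mmp24, Mmp28, Adamts4, Adamts7, Adamts8 and Adamts9 overlap those of a gene on the opposite strand, so that their reads can be shared with it.

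The number of members called higher than at day 0 grew up to day 7, and by day 14 slightly more were lower than higher. At day 3, 17 members were called higher and 16 lower than at day 0, against 31.8% and 34.8% of all tested genes, and the median log2 fold change of the 40 members was -0.07. By day 5 the members called were 22 higher and 9 lower, against 29% and 30.6% of all genes. At day 7 they were 27 higher and 7 lower, against 25.6% and 24.8%, and the median was 1.20 beside 0.00 for all genes. Day 10 had 23 higher and 6 lower members, with 23.5% and 26.9% of all genes. Day 12 had 20 higher and 7 lower, with 21.7% and 25.6%, and day 14 had 14 higher and 16 lower, with 28.2% and 34.5%. The median of the members was 1.17 at day 10, 0.43 at day 12 and -0.38 at day 14. The shares of members called higher at days 7 and 10 (67.5% and 57.5%) stood furthest above those of all genes. Without composition normalization, 23 members were higher and 5 lower at day 12 and 14 and 13 at day 14, while the share of higher ones among all called genes went from 45.8% to 67.4% at day 12 and from 45.0% to 56.2% at day 14.

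Past the fold limit, 14 members were higher and 8 lower at day 3, where 6.44% and 12.3% of all genes were. The counts were 12 and 1 at day 5 (5.52% and 8.22% of all genes), 17 and 0 at day 7 (4.52% and 4.64%) and 16 and 1 at day 10 (4.22% and 5.02%). They were 6 and 1 at day 12 (3.69% and 3.38%) and 6 and 5 at day 14 (5.1% and 8.71%). No single library, when left out, moved the total of higher and lower members on a day by over 1.5 times. In limma on log2(FPKM + 1) the totals were 12 at day 3, 8 at day 5, 9 at day 7, 7 at day 10 and 4 at day 14, and without composition normalization 11 at day 12. The comparisons with day 0 share its 4 libraries, so their counts are not independent of each other.

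From one sampled day to the next, the direction of the members turned over between days 10 and 12. Day 5 against day 3 had 19 members higher and 7 lower (12.9% and 11.4% of all genes), and day 7 against day 5 had 16 and 6 (13.9% and 14.6%). Day 10 against day 7 had 12 higher and 7 lower (14.3% and 18%). At day 12 against day 10, 5 members were higher and 19 lower (18.7% and 20.7%), and at day 14 against day 12, 3 were higher and 25 lower (19.9% and 25.3%). The 3 that still rose at the end were Adamts18, Adamts20 and Mmp15. Without composition normalization the members higher and lower were 16 and 4 for day 7 against day 5, 13 and 6 for day 10 against day 7 and 6 and 19 for day 12 against day 10, while the share of higher ones among all called genes went from 48.8% to 58.9%, from 44.2% to 55.5% and from 47.5% to 63.7%.

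**Figure D1:**
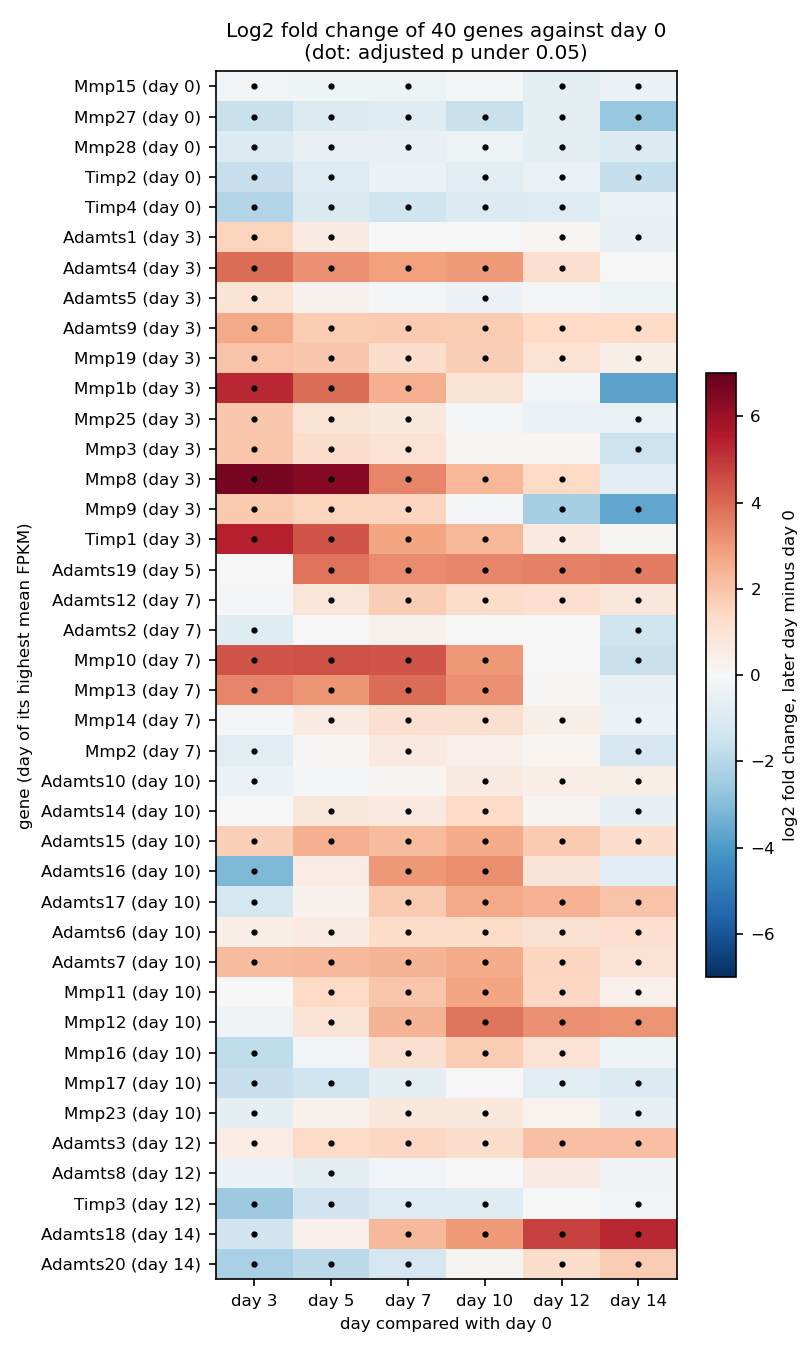
Log2 fold change against day 0 (colour, red higher and blue lower) of the 40 tested genes (rows, ordered by the day of the highest mean FPKM, given in brackets) on 6 later days (columns), with a dot where the adjusted p was under 0.05. The deepest red lies at day 3 for Mmp8 (6.64) and Timp1 (5.45), at day 10 for Mmp11 (2.77) and Mmp12 (3.74) and at day 14 for Adamts18 (5.27), with paler red on neighbouring days.

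The tested members were sorted by the day of the highest mean FPKM, in which some days were nearly tied (Mmp15 at 5.83 at day 0 and 5.77 at day 10, for example). There were 5 with their highest level at day 0 (Mmp15, Mmp27, Mmp28, Timp2 and Timp4) and 11 at day 3 (among them Mmp3, Mmp8, Mmp9, Adamts4, Adamts9 and Timp1). Only Adamts19 was highest at day 5, 6 members were highest at day 7 (among them Mmp2, Mmp13 and Mmp14) and 12 at day 10 (among them Mmp11, Mmp12, Mmp16, Adamts7 and Adamts15). Day 12 held 3 (Adamts3, Adamts8 and Timp3) and day 14 held 2 (Adamts18 and Adamts20). On TMM-scaled counts, 5 of these moved: Mmp10 to day 5, Mmp17 and Timp3 to day 0, Mmp23 to day 7 and Adamts3 to day 14.

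The inhibitors exchanged places after wounding. Timp1, a secreted inhibitor that inflammatory signals are known to induce, had FPKM values of 22.4, 5.63, 5.55 and 10.99 at day 0 and 471, 463, 444 and 498 at day 3. All day 3 libraries lay above all day 0 libraries, and the log2 fold change was 5.45 (SE 0.28, adjusted p = 7.62e-16). Timp1 made up 2.52% ± 2.13 of the summed Timp FPKM at day 0 and 76.5% ± 2.06 at day 3. It then fell by 1.04 on the log2 scale from day 3 to day 5 (adjusted p = 0.000961), by 1.65 from day 5 to day 7 (adjusted p = 2.65e-06) and by 1.63 from day 10 to day 12 (adjusted p = 2.92e-06).

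Late in repair Timp1 overlapped with day 0 again, at 22.9, 19.2, 17.8 and 18.8 FPKM at day 12 and 12.0, 11.4, 12.3 and 15.0 at day 14. Its log2 fold change against day 0 was 0.68 at day 12 (adjusted p = 0.0257) and 0.06 at day 14 (adjusted p = 0.86). Both values rest on replicate 1 of day 0, the highest of that day: without it they were 1.30 (adjusted p = 1.48e-07) and 0.74 (adjusted p = 0.000275). The day 12 call was lost without day 0 replicate 2 (0.46, adjusted p = 0.104), without day 0 replicate 3 (0.46, adjusted p = 0.104), without day 12 replicate 1 (0.59, adjusted p = 0.0752), with the 2 days fitted alone (adjusted p = 0.213) and in DESeq2 (adjusted p = 0.0533). Without day 0 replicate 2 or 3 the day 14 value was -0.12, and without day 14 replicate 4 it was -0.02.

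The other 3 inhibitors fell as Timp1 rose. Timp3, which binds to the matrix and also blocks ADAMTS enzymes, had 113, 109, 103 and 116 FPKM at day 0 and 17.5, 18.3, 18.0 and 17.8 at day 3. The groups did not overlap, with a log2 fold change of -2.56 (SE 0.05, adjusted p = 1.99e-23). It rose by 1.23 from day 3 to day 5 (adjusted p = 1.5e-15) and by 0.79 from day 10 to day 12 (adjusted p = 1.7e-12), when its libraries read 117, 115, 120.2 and 118. Against day 0 its value at day 12 was -0.05 (adjusted p = 0.442), which turned to 0.09 without composition normalization. Day 14 was -0.18 (adjusted p = 0.00269), and the call was lost without day 0 replicate 1 (-0.09, adjusted p = 0.154) and without day 0 replicate 4 (-0.08, adjusted p = 0.179), without composition normalization (-0.06, adjusted p = 0.32) and with the 2 days fitted alone (-0.11, adjusted p = 0.159).

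Timp2, which besides inhibiting proteases helps membrane-type enzymes to activate pro-MMP2, was the most abundant inhibitor at day 0 at 277, 552, 549.6 and 212 FPKM. Replicates 2 and 3 were the high ones. At day 3 its values were 139, 123, 126 and 109.7, below all day 0 libraries, with a log2 fold change of -1.62 (SE 0.18, adjusted p = 6.43e-09). It was 312 ± 16.9 at day 12, within the day 0 range but called lower, and fell again to 129.9, 131, 146 and 145 at day 14, by 1.16 on the log2 scale from day 12 (adjusted p = 5.76e-06) and to -1.65 (SE 0.18, adjusted p = 6.09e-09) against day 0.

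Timp4, an inhibitor made in few tissues, read 12.3, 4.29, 5.08 and 12.7 FPKM at day 0, where replicates 1 and 4 were the high ones. Its day 0 mean was the lowest of the inhibitors, but in replicate 4 it was above Timp1 (10.99). At day 3 it was 2.02, 2.16, 2.08 and 1.68, without overlap, and its log2 fold change was -2.06 (SE 0.23, adjusted p = 6.07e-09). It stayed lower at day 7 (-1.39, SE 0.22, adjusted p = 5.06e-06) and reached 6.83 ± 0.582 at day 14, where it was not called (-0.46, adjusted p = 0.0599). Without day 0 replicate 2 or 3 the day 14 value was called (-0.64, adjusted p = 0.00257, and -0.60, adjusted p = 0.00984). The skeletal muscle markers were lower than at day 0 in 5 of 5 genes at day 3. They were still lower in 5 of 5 at day 14, at 2660 to 3084 FPKM, when Timp4 was not called. Their part in the Timp4 level was not tested.

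**Figure D2:**
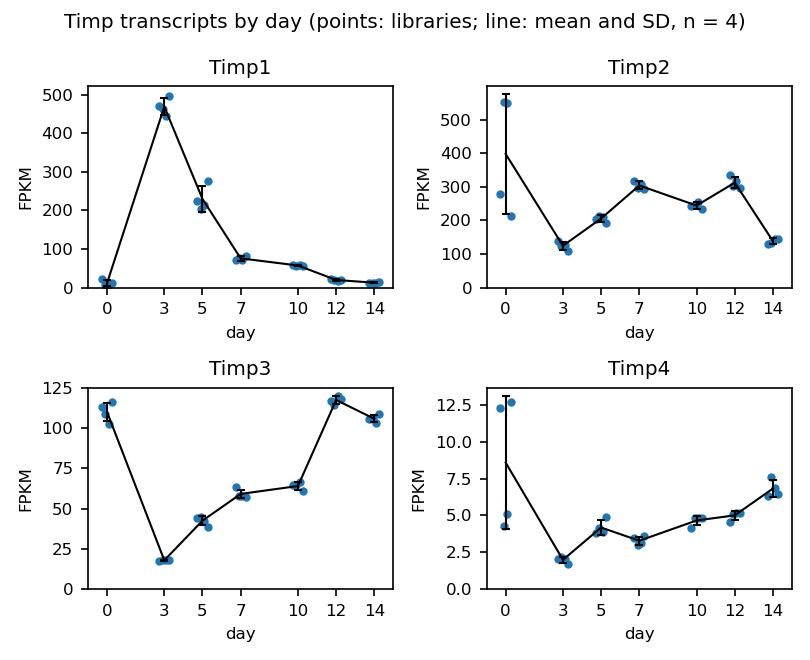
FPKM (vertical axes, from 0) of the 4 Timp genes by day (horizontal axes), with each library as a point and the mean ± SD of 4 libraries as a black line. Timp1 is high at day 3 in all 4 libraries (444 to 498) while Timp2, Timp3 and Timp4 are at their lowest mean of the time course.

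Summed over each family, the balance between protease and inhibitor transcripts shifted towards the proteases until day 10. The Mmp genes summed to 497 ± 142 FPKM at day 0, 609 ± 37.9 at day 3, 980 ± 22.7 at day 7, 941 ± 32.5 at day 10 and 369 ± 14.8 at day 14. The Timp genes summed to 528 ± 163 at day 0, 613 ± 18.6 at day 3, 442 ± 10.2 at day 7, 370 ± 12.8 at day 10 and 263 ± 10.2 at day 14. The Adamts sum stayed between 79.5 ± 3.70 at day 14 and 140 ± 7.82 at day 7.

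Taken within each library, the Mmp to Timp ratio was 0.948 ± 0.0379 at day 0, 0.994 ± 0.0705 at day 3, 1.51 ± 0.0583 at day 5 and 2.22 ± 0.0795 at day 7. It was 2.54 ± 0.0354 at day 10, 1.56 ± 0.0451 at day 12 and 1.40 ± 0.0376 at day 14. The lowest day 10 library (2.49) lay above the highest of any other day (2.32, at day 7), and days 0 and 3 overlapped. The day 0 ratios lay between 0.921 and 1.00 although their sums differed widely. At day 7, Mmp14 held 34.5% ± 1.10 and Mmp2 34.5% ± 0.523 of the summed Mmp FPKM. The third-largest part was Mmp3 at day 7 (11.6% ± 0.411) and Mmp12 at day 10 (10.2% ± 0.430).

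**Figure D3:**
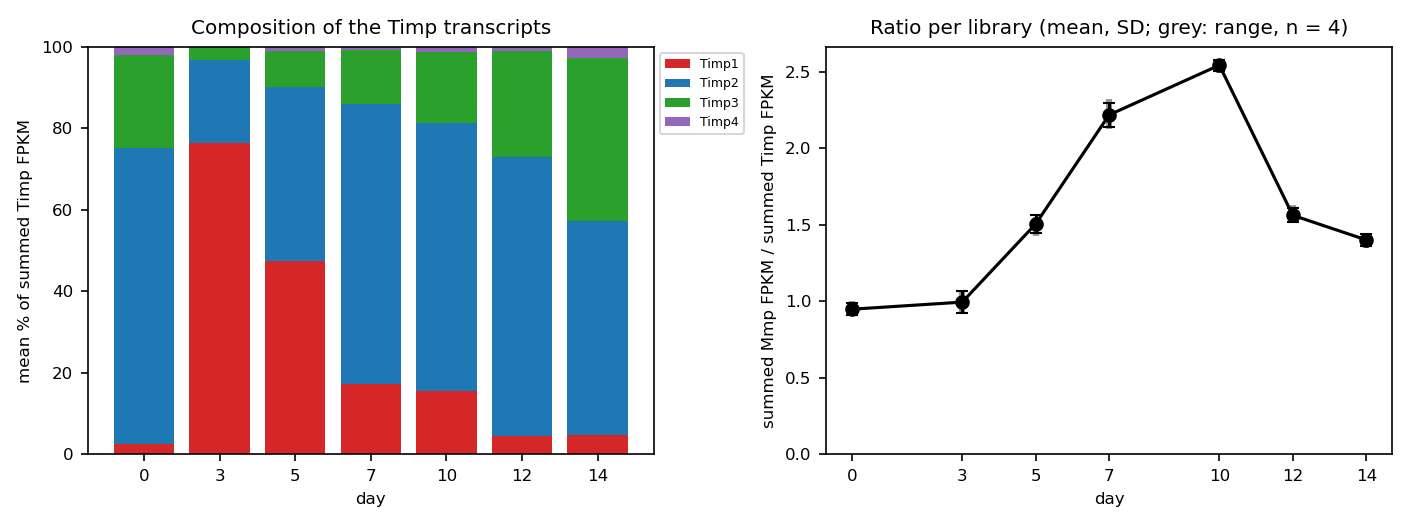
Left, mean percentage of the summed Timp FPKM (vertical axis) held by each of the 4 Timp genes (colours) on each day (horizontal axis). Right, ratio of the summed Mmp FPKM to the summed Timp FPKM by day, as mean with SD bars and the range of 4 libraries in grey. Timp1 holds 76.5% at day 3 and 4.32% at day 12, and the ratio is highest at day 10 at 2.54.

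The interstitial collagenases, which make the first cut in fibrillar collagen, were high by day 3. Mmp8, the collagenase stored in neutrophil granules, read 0.386, 0.181, 0.0830 and 0.111 FPKM at day 0, 18.1, 17.8, 19.3 and 18.8 at day 3 and 15.7, 14.7, 15.3 and 15.3 at day 5. Both later days lay far above day 0, and the log2 fold change at day 3, 6.64 (SE 0.24, adjusted p = 4.31e-19), was the highest of all members on that day. By day 7 Mmp8 had fallen by 2.95 on the log2 scale from day 5 (adjusted p = 6.12e-13), to 1.98, 2.25, 1.92 and 1.98. It was still called higher than at day 0 at day 12, at 0.680, 0.551, 0.473 and 0.530 (1.40, SE 0.28, adjusted p = 0.000166). Day 14 read 0.126, 0.158, 0.0206 and 0.170, which overlapped with day 0.

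The neutrophil markers (S100a8, S100a9, Retnlg, Cxcr2, Csf3r and Ly6g) summed to between 16.5 and 63.6 FPKM at day 0, with Ly6g at 0 counts in all 4 libraries, and to between 7632 and 9744 at day 3, where 6 of 6 were higher. They were at 2690 to 3503 at day 5, 969 to 1805 at day 7 and 25.5 to 35.0 at day 12, where Ly6g was again at 0 counts. Their part in the Mmp8 level was not tested.

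Mmp13, the main collagenase of mouse connective tissue cells, stayed high for longer than Mmp8. It read 2.24, 0.323, 0.333 and 1.86 at day 0, with replicates 1 and 4 the high ones, 12.6, 11.6, 11.6 and 12.3 at day 3 and 17.0, 18.6, 15.6 and 19.1 at day 7. None of the day 3 or day 7 libraries overlapped with day 0, and the log2 fold changes were 3.40 (SE 0.32, adjusted p = 4.06e-10) and 3.89 (SE 0.33, adjusted p = 8.55e-11). Day 10 was 11.4, 11.7, 12.5 and 9.62. Between days 10 and 12 it fell by 3.10 on the log2 scale (adjusted p = 7.35e-09), to 1.25, 1.66, 1.13 and 1.58, which lay within the day 0 range.

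The 2 mouse counterparts of human interstitial collagenase were scarce. Mmp1b had 0 to 5 counts a library at day 0 and 43 to 76 at day 3 (0.793 ± 0.179 FPKM), with a log2 fold change of 5.30 (SE 0.76, adjusted p = 1.42e-06) that rests on these few day 0 counts. At day 5 it had 9 to 33 counts, and at day 14 it had 0 in all libraries, which allows up to 3 counts in each. Mmp1a had 0 counts in every library of days 0, 12 and 14 and 3 to 18 at day 3, too few to be tested. Mmp1a and Mmp1b are close copies, so reads can be split between them. In GENCODE vM21, exons of Mmp1b overlap those of Mmp12 on the other strand, while in RefSeq the genes lie 7208 bases apart. Mmp12 was highest at day 10, when Mmp1b had 0 to 8 counts.

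The collagenase genes lie in a cluster with other Mmp genes. On chromosome 9, 10 Mmp genes stand between positions 7272514 and 7699585 (GRCm38.p6, RefSeq), in the order Mmp13, Mmp12, Mmp1b, Mmp3, Mmp1a, Mmp10, Mmp8, Mmp27, Mmp20 and Mmp7. Of the 7 that were tested, 5 were higher at day 3 (Mmp1b, Mmp3, Mmp8, Mmp10 and Mmp13), Mmp27 was lower and Mmp12 was not called, beside 31.8% of all genes higher and 34.8% lower. Mmp8 and Mmp27 are neighbours with 2909 bases between them, and at day 3 Mmp8 was at 6.64 and Mmp27 at -1.54 on the log2 scale.

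RefSeq promoter windows (250 bases before to 50 after the start site) were found for 32 members. The windows were searched for TGANTCA (N is any base), a loose form of the AP-1 binding motif that reads the same on both strands. Counted by gene, at any start site, it occurred in 8 of the 10 cluster genes and in 0 of the 22 other members with a window. Counted by window, 8 of the 35 member windows (22.9%) held it, beside 7.81% of all 32851 windows. The 8 include Mmp1a, Mmp7 and Mmp20, which had too few counts to be tested. The match in Mmp20 reads TGAATCA, that in Mmp13 TGACTCA and those in the others TGAGTCA. Of the members higher at day 3, no window was matched for Mmp9, Mmp19, Adamts4, Adamts5, Adamts6, Adamts7 and Adamts15. The 110 bases before the start site are shown for the cluster genes with data, with TGANTCA in capitals, because they set the genes that rose at day 3 beside the 2 neighbours that moved apart. Mmp12 has a second start site with the motif, shown here, and a first one without it. Mmp7 likewise has a start site with the motif and another without it. A match of letters is not a shown binding site.
Mmp13 (chr9:7272404-7272513, + strand): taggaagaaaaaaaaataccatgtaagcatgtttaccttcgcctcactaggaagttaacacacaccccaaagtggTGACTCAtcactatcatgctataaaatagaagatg
Mmp12 (chr9:7347264-7347373, + strand): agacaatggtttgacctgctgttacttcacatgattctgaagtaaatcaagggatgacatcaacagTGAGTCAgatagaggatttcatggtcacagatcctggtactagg
Mmp1b (chr9:7388027-7388136, - strand): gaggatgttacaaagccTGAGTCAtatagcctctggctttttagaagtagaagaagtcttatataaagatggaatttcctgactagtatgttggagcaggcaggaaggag
Mmp3 (chr9:7445712-7445821, + strand): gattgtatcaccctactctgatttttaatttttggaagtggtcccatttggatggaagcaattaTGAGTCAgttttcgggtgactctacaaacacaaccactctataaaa
Mmp10 (chr9:7502232-7502341, + strand): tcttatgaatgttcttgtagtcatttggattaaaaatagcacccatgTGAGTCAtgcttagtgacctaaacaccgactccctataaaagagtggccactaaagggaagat
Mmp8 (chr9:7558319-7558428, + strand): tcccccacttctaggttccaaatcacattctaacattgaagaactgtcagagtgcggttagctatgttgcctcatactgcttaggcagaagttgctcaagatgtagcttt
Mmp27 (chr9:7571286-7571395, + strand): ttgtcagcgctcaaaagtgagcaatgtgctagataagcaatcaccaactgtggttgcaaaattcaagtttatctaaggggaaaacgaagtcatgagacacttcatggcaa
The motif starts 35 bases before the start site in Mmp13, 44 in Mmp12, 93 in Mmp1b, 46 in Mmp3 and 63 in Mmp10. Mmp8, the member with the highest fold change at day 3, has no TGANTCA in its window, and neither has Mmp27.

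The stromelysins split into early and middle members. Mmp3 (stromelysin 1), which cuts proteoglycans, laminin and fibronectin and can activate other MMPs, read 44.5, 76.3, 71.9 and 32.7 at day 0 and 223, 191, 229 and 199 at day 3, without overlap. Its log2 fold change was 1.96 (SE 0.15, adjusted p = 5.27e-12) at day 3 and 1.01 (SE 0.15, adjusted p = 1.82e-06) at day 7. At day 3 it held 34.5% ± 1.37 of the summed Mmp FPKM, against 11.1% ± 1.13 at day 0. From day 12 to day 14 it fell by 1.58 on the log2 scale (adjusted p = 2.98e-09), to 19.8, 21.6, 21.4 and 23.9, below every day 0 library (-1.51, SE 0.15, adjusted p = 1.45e-09).

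Mmp10 (stromelysin 2), known from migrating keratinocytes at the wound edge, had 2 to 17 counts a library at day 0 (0.251, 0.0285, 0.103 and 0.0786 FPKM). It read 2.69, 2.22, 2.30 and 2.23 at day 3 and 2.48, 2.52, 2.04 and 3.01 at day 7, all above day 0, with log2 fold changes of 4.39 (SE 0.40, adjusted p = 1.68e-10) and 4.42 (SE 0.40, adjusted p = 3.54e-10). After 1.15, 0.775, 1.34 and 0.628 at day 10 it fell by 2.96 on the log2 scale to 0.0575, 0.213, 0.128 and 0.130 at day 12 (adjusted p = 9.9e-07). The wound edge keratins Krt6a, Krt6b, Krt16 and Krt17 summed to 273 to 402 FPKM at day 0 and 1198 to 1487 at day 3, where 3 of 4 were higher, and to 583 to 676 at day 12. At day 14 they were up again at 1004 to 1144, when Mmp10 had 0 to 7 counts. Their part in the Mmp10 level was not tested.

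Mmp11 (stromelysin 3), made by stromal cells, came later. Its libraries read 10.8, 7.82, 6.36 and 9.79 at day 0 and 9.93, 7.33, 8.55 and 7.95 at day 3, which overlapped. The day 7 values were 35.3, 32.5, 35.7 and 30.9 and the day 10 values 61.5, 63.7, 61.4 and 59.4, all above the days before, with log2 fold changes of 1.95 (SE 0.11, adjusted p = 1.45e-14) and 2.77 (SE 0.11, adjusted p = 3.22e-17). Day 12 was down to 26.3 ± 0.854 and day 14 to 11.9, 11.7, 13.1 and 12.6, still called higher than day 0 (0.38, SE 0.11, adjusted p = 0.00267). That last value was 0.58 without day 0 replicate 1. The myofibroblast markers (Acta2, Postn, Cthrc1 and Tagln) summed to 281 to 420 FPKM at day 0 and 1954 to 2049 at day 10, where 2 of 4 were called higher. They were at 1037 to 1118 at day 12 and 775 to 878 at day 14, and their part in the Mmp11 level was not tested.

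The gelatinases, which cut denatured collagen and basement membrane collagen, followed different courses. Mmp9, made by neutrophils, macrophages and keratinocytes, read 5.50, 16.4, 15.9 and 4.66 at day 0, with replicates 2 and 3 the high ones. It was 35.8, 36.99, 35.5 and 35.1 at day 3, 31.7, 30.5, 29.8 and 31.0 at day 5 and 29.7, 31.4, 30.9 and 29.4 at day 7. Even the high day 0 libraries lay below these days, and the log2 fold change was 1.81 (SE 0.25, adjusted p = 4.5e-07) at day 3. Between days 7 and 10 it fell by 1.67 on the log2 scale (adjusted p = 8.09e-06), to 9.33, 9.28, 11.1 and 9.83. It went on to 2.49, 2.39, 2.24 and 2.42 at day 12 and 0.580, 1.51, 0.787 and 0.860 at day 14, below all day 0 libraries. The log2 fold changes were -2.30 (SE 0.27, adjusted p = 7.91e-08) at day 12 and -3.63 (SE 0.30, adjusted p = 3.35e-11) at day 14.

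Mmp2, made by fibroblasts, read 165, 286, 288 and 114 at day 0, and its replicates 2 and 3 were again the high ones. It was 132, 116, 123 and 109 at day 3 (-0.78, SE 0.16, adjusted p = 0.000122), where the days overlapped. It rose by 0.84 from day 3 to day 5 (adjusted p = 0.00028) and was highest at day 7 at 337, 333, 341 and 341, all above day 0. That difference was 0.66 (SE 0.16, adjusted p = 0.00108), and the call was lost when days 0 and 7 were fitted alone (0.62, adjusted p = 0.0954). At day 14 it was 99.0, 101, 107 and 106, having fallen by 1.33 on the log2 scale from day 12 (adjusted p = 2.1e-07), and lay below day 0 (-1.17, SE 0.16, adjusted p = 4.27e-07). Where Mmp9 was down by day 12, Mmp2 still read 262 ± 8.86. The fibroblast markers summed to 1975 to 2394 at day 3, with 1 of 5 higher than at day 0 and 4 lower. They summed to 4564 to 4753 at day 7 (2 higher and 0 lower) and 1628 to 1809 at day 14 (0 higher and 5 lower). Their part in the Mmp2 level was not tested.

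Mmp12, macrophage elastase, rose from day 5 to day 10 and stayed high. It read 16.0, 2.46, 2.23 and 6.99 at day 0, a spread set by replicate 1, and 4.70, 5.53, 5.47 and 6.47 at day 3, which was not called (-0.26, adjusted p = 0.502). Without day 0 replicate 1 the day 3 value was 0.63 (adjusted p = 0.0192). Day 5 was tightly grouped at 12.9, 13.0, 13.3 and 13.1 (0.96, SE 0.33, adjusted p = 0.0157). That value was 1.81 without day 0 replicate 1, and the call was lost without day 0 replicate 2 (0.67, adjusted p = 0.0611), without day 0 replicate 3 (0.66, adjusted p = 0.0574) and with the 2 days fitted alone (0.95, adjusted p = 0.164).

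From day 7 on, Mmp12 lay above all day 0 libraries, at 37.4, 44.3, 27.0 and 34.8 at day 7 and 93.9, 93.3, 107 and 91.5 at day 10 (3.74, SE 0.36, adjusted p = 1.69e-09). At day 12 it was 71.2, 67.7, 69.7 and 76.7, all below day 10, but the step down was not called in the fit over all days (-0.53, adjusted p = 0.205). With the 2 days fitted alone, without the spread of the other days, the step was called (-0.51, adjusted p = 1.97e-08). Day 14 read 71.5, 71.3, 55.4 and 73.5 (3.16, SE 0.35, adjusted p = 1.16e-08). Mmp12 held 1.65% ± 1.62 of the summed Mmp FPKM at day 0 and 18.4% ± 2.08 at day 14. The macrophage markers (Adgre1, Csf1r, Cd68, Mrc1, Lyz2 and C1qa) summed to 1280 to 1856 at day 0 and 3508 to 3853 at day 5, where 6 of 6 were higher. At day 10 they summed to 1822 to 1931, with 2 higher and 4 lower than at day 0. At day 14 they summed to 727 to 816, where 6 of 6 were lower than at day 0. Their part in the Mmp12 level was not tested.

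**Figure D4:**
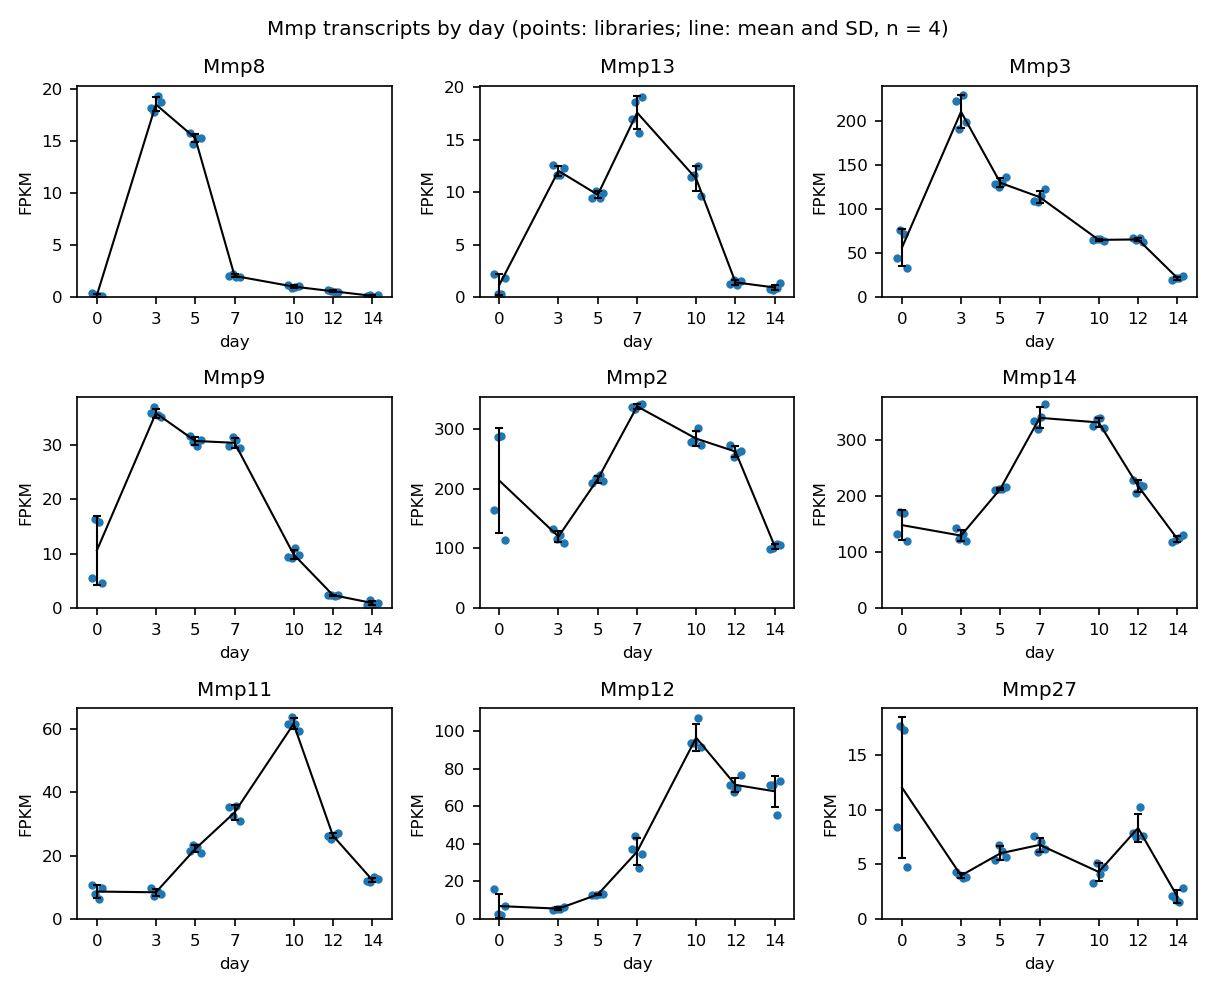
FPKM (vertical axes, from 0) of 9 Mmp genes by day (horizontal axes), with each library as a point and the mean ± SD of 4 libraries as a black line. Mmp8, Mmp3 and Mmp9 are highest at day 3, Mmp13, Mmp2 and Mmp14 at day 7, Mmp11 and Mmp12 at day 10, and the day 0 points of Mmp2, Mmp9 and Mmp27 fall into a higher and a lower pair.

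Of the 5 tested membrane-type enzymes, which act at the cell surface, 3 were called higher and 2 lower at day 7, beside 25.6% and 24.8% of all genes. Mmp14 (MT1-MMP), a collagenase that activates pro-MMP2, was the most abundant member at day 7 together with Mmp2. It read 131, 171, 169 and 119.8 at day 0, 211, 212, 211 and 215 at day 5, 332, 319, 340.1 and 364 at day 7 and 325, 337, 339 and 322 at day 10. Day 0 lay below each of these, and the log2 fold change was 1.19 (SE 0.08, adjusted p = 1.49e-12) at day 7 and 1.11 (SE 0.08, adjusted p = 9.83e-12) at day 10. It fell by 0.80 on the log2 scale from day 12 to day 14 (adjusted p = 8.98e-09), to 117, 121, 124 and 130.5 (-0.39, SE 0.08, adjusted p = 0.000151 against day 0, with overlap).

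Mmp16 (MT3-MMP) went down before it went up. It read 0.862, 0.601, 0.691 and 0.809 at day 0, 0.283, 0.203, 0.152 and 0.188 at day 3 and 2.92, 2.60, 2.42 and 2.56 at day 10, with no overlap between the 3 days. Its log2 fold change was -1.78 (SE 0.22, adjusted p = 5.01e-08) at day 3 and 1.77 (SE 0.19, adjusted p = 8.24e-09) at day 10.

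Mmp17 (MT4-MMP), held in the membrane by a lipid anchor, read 2.34, 1.75, 1.54 and 2.35 at day 0 and 0.682, 0.790, 0.520 and 0.561 at day 3, without overlap (-1.59, SE 0.16, adjusted p = 9.49e-10). It was 1.88, 2.33, 2.08 and 1.87 at day 10, where it overlapped with day 0, and lower again at day 14 at 0.977, 0.963, 1.35 and 1.22 (-0.95, SE 0.15, adjusted p = 4.6e-06). Mmp25 (MT6-MMP), known from leukocytes, moved the other way, from 0.912, 0.602, 0.538 and 0.806 at day 0 to 2.39, 2.44, 2.79 and 2.45 at day 3 (1.87, SE 0.19, adjusted p = 1.37e-09). It was down to 1.19 ± 0.213 at day 7 and 0.691 ± 0.0927 at day 10. Mmp15 was lower than day 0 on 5 of 6 days, at most by 0.70 on the log2 scale at day 12.

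Among the remaining MMPs, Mmp19 rose and Mmp27 and Mmp28 fell. Mmp19 read 15.8, 9.39, 8.82 and 9.57 at day 0, with replicate 1 apart, and 43.0, 42.4, 42.8 and 41.3 at day 3 (2.01, SE 0.12, adjusted p = 1.44e-14). It was called higher on all 6 later days and read 34.8, 36.3, 39.1 and 36.7 at day 10 and 15.9, 15.3, 15.2 and 18.0 at day 14 (0.43, SE 0.11, adjusted p = 0.00171, with overlap, and 0.75 without day 0 replicate 1). Mmp27, a poorly studied member of the cluster, read 8.42, 17.6, 17.3 and 4.79 at day 0, with the same high replicates 2 and 3 as Timp2 and Mmp2. It was 4.31, 4.08, 3.72 and 3.83 at day 3 (-1.54, SE 0.25, adjusted p = 5.01e-06) and 2.14, 1.71, 1.56 and 2.82 at day 14 (-2.68, SE 0.27, adjusted p = 1.22e-09), below all day 0 libraries on both days.

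Mmp28 (epilysin), an enzyme of keratinocytes, was lower than day 0 on 6 of 6 days, from 6.49 ± 0.918 at day 0 to 3.23 ± 0.214 at day 3 (-0.95, SE 0.09, adjusted p = 6.58e-10) and 3.65 ± 0.320 at day 14. Mmp23 was 13.5 ± 4.52 at day 0, 8.28 ± 0.382 at day 3 (-0.64, SE 0.14, adjusted p = 0.000148) and 23.1 ± 0.993 at day 10 (0.73, SE 0.13, adjusted p = 4.48e-05). Of the untested genes, Mmp7 (matrilysin), Mmp20 (an enzyme of tooth enamel) and Mmp21 had at most 5 counts in any library and Mmp24 had at most 11.

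The ADAMTS proteoglycanases, which cut versican and aggrecan, made up 5 of the 8 Adamts genes called higher at day 3. The other 3 were Adamts3, Adamts6 and Adamts7. Of the 7 proteoglycanases, 5 were thus higher and 1 lower, beside 31.8% and 34.8% of all genes. Adamts4 read 0.986, 1.36, 1.29 and 0.639 at day 0 and 15.8, 14.4, 15.9 and 14.9 at day 3, with log2 fold change 3.89 (SE 0.13, adjusted p = 1.46e-19). It kept a plateau of 8.30, 8.03, 7.60 and 7.99 at day 7 and 9.38, 8.28, 9.31 and 8.52 at day 10, all above day 0, and then dropped to 2.52, 2.36, 2.74 and 2.58 at day 12 and 1.22, 1.09, 1.10 and 1.18 at day 14. Its day 14 libraries lay among those of day 0.

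Adamts9, also a proteoglycanase, read 1.61, 1.90, 1.64 and 1.47 at day 0 and 10.0, 10.7, 10.1 and 9.94 at day 3 (2.68, SE 0.10, adjusted p = 1.67e-18). Unlike Adamts4 it was still at 4.28, 4.75, 4.68 and 4.99 at day 14, above all day 0 libraries (1.37, SE 0.10, adjusted p = 2.54e-12). Adamts1, the most abundant proteoglycanase at day 3, went from 11.8, 11.9, 10.8 and 11.1 at day 0 to 33.2, 33.0, 32.1 and 32.2 at day 3 (1.57, SE 0.06, adjusted p = 5.69e-18). It was 11.4, 12.1, 11.5 and 10.8 at day 7 and below day 0 at day 14 at 9.12, 9.03, 7.76 and 8.71 (-0.53, SE 0.06, adjusted p = 3.01e-08). Adamts5, a strong aggrecanase that also lies on chromosome 16, rose to 22.1 ± 0.525 at day 3 from 11.8 ± 5.28 (0.96, SE 0.17, adjusted p = 1.3e-05).

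Adamts15 was higher than day 0 on all 6 later days. Its libraries read 2.10, 2.17, 1.77 and 1.30 at day 0, 5.61, 6.24, 5.61 and 5.23 at day 3, 11.9, 11.6, 12.0 and 11.2 at day 10 and 4.24, 4.85, 4.54 and 4.87 at day 14. None of these later days overlapped with day 0, and the log2 fold change was 2.61 (SE 0.10, adjusted p = 2.1e-17) at day 10. Adamts8 had at most 129 counts in any library and was called against day 0 only at day 5, when it was lower.

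Adamts20 was the proteoglycanase that fell at day 3, and at days 12 and 14 it was called higher, as were Adamts9 and Adamts15. It read 0.639, 0.255, 0.364 and 0.513 at day 0, 0.0629, 0.102, 0.0743 and 0.120 at day 3 and 1.66, 1.89, 1.32 and 1.83 at day 14, and the 3 days did not overlap. The log2 fold change was -2.24 (SE 0.25, adjusted p = 1.14e-08) at day 3 and 1.79 (SE 0.22, adjusted p = 5.75e-08) at day 14. Adamts18, whose substrates are poorly known, also went down first and up late. It read 0.240, 0.0857, 0.0795 and 0.0662 at day 0, 0.0683, 0.0415, 0.0266 and 0.0445 at day 3, 0.837, 1.03, 1.02 and 0.948 at day 10, 3.54, 3.67, 3.63 and 3.43 at day 12 and 5.07, 4.93, 4.52 and 5.49 at day 14. Its log2 fold change at day 14, 5.27 (SE 0.23, adjusted p = 1.44e-16), was the highest of all members on that day, while the day 3 value of -1.32 was -0.66 without day 0 replicate 1 and was not called in limma on log2(FPKM + 1) (-0.09, adjusted p = 0.0829).

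The hair follicle keratins (Krt31, Krt33a, Krt35, Krt71 and Krt25) summed to 84.7 to 621 FPKM at day 0 and to 1.02 to 3.66 at day 3, where 5 of 5 were lower. They were at 297 to 414 at day 7, 90.0 to 105 at day 10, 1692 to 2286 at day 12 and 1870 to 2465 at day 14, where 5 of 5 were higher than at day 0. None of the 5 was at 0 counts in all libraries of a day. Their part in the levels of Adamts18 and Adamts20 was not tested.

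**Figure D5:**
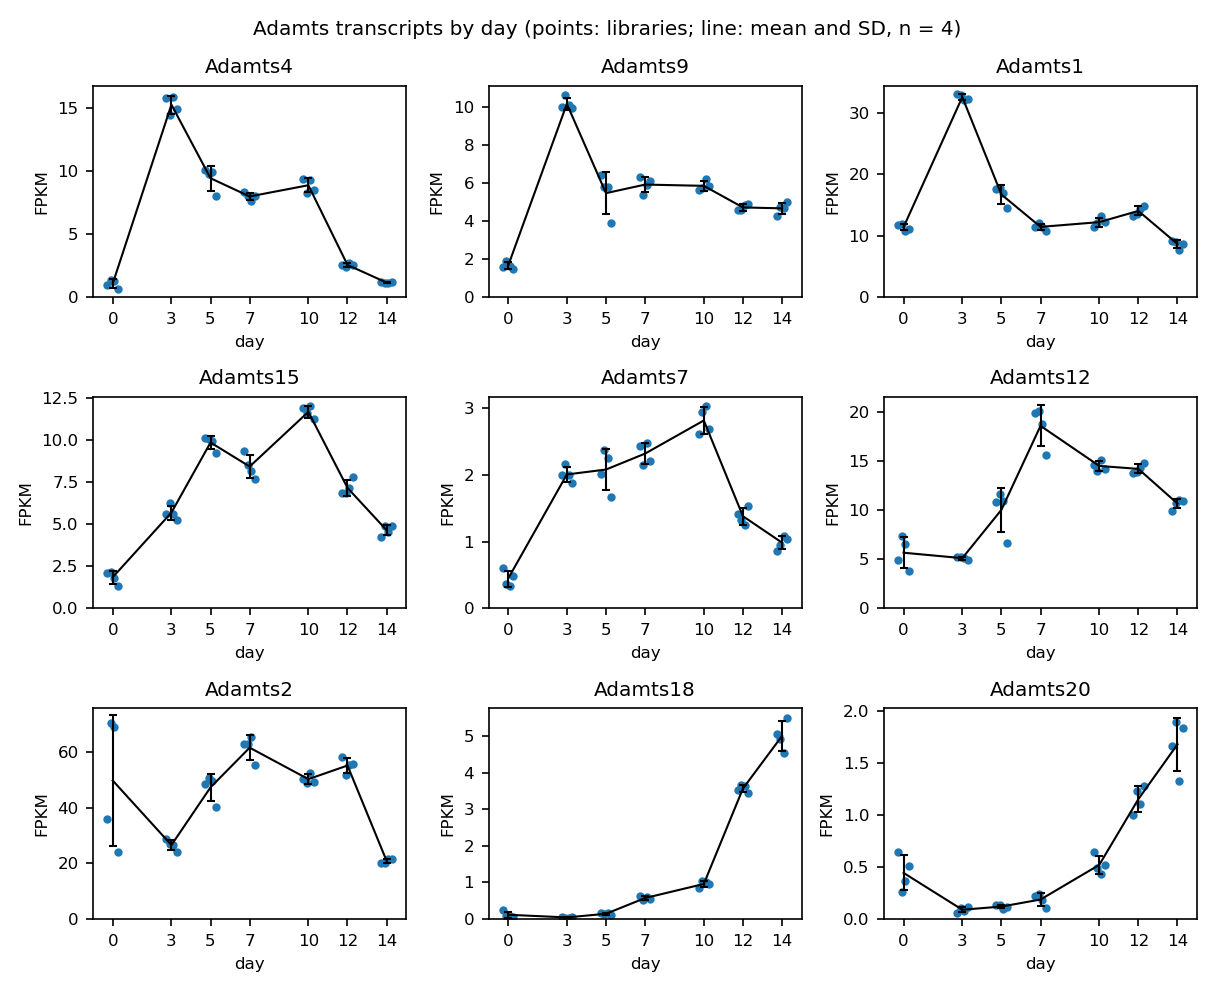
FPKM (vertical axes, from 0) of 9 Adamts genes by day (horizontal axes), with each library as a point and the mean ± SD of 4 libraries as a black line. Adamts4, Adamts9 and Adamts1 are highest at day 3, Adamts15 and Adamts7 at day 10, Adamts12 and Adamts2 at day 7, and Adamts18 and Adamts20 at day 14.

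The procollagen N-propeptidases, which trim fibrillar procollagens so that fibrils can form, did not move as a group. Adamts2, the most abundant Adamts gene on 6 of the 7 days, was at 49.7 ± 23.4 FPKM at day 0, where replicates 2 and 3 were the high ones. It was 26.5 ± 1.92 at day 3 (-0.85, SE 0.19, adjusted p = 0.000261, with overlap), 61.5 ± 4.40 at day 7 and 20.8 ± 0.849 at day 14 (-1.38, SE 0.19, adjusted p = 4.1e-07, below all day 0 libraries). Adamts14 had a peak of 7.08 ± 0.435 at day 10 against 2.72 ± 0.797 at day 0 (1.33, SE 0.13, adjusted p = 1.87e-09). Adamts3 was scarce and was called higher on all 6 later days, from 0.109 ± 0.0324 at day 0 to 0.513 ± 0.0441 at day 12 (2.09, SE 0.19, adjusted p = 1.27e-09) and 0.510 ± 0.0809 at day 14 (2.10, SE 0.19, adjusted p = 3.69e-10).

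The enzymes that cut cartilage oligomeric matrix protein (COMP) were both called higher at day 7, beside 25.6% of all genes, and Adamts7 alone at day 3. Adamts7 read 0.597, 0.363, 0.334 and 0.482 at day 0, 2.00, 2.16, 2.00 and 1.87 at day 3, 2.61, 2.94, 3.04 and 2.69 at day 10 and 0.864, 0.949, 1.08 and 1.04 at day 14. It was above day 0 in every later library, with log2 fold changes of 2.23 (SE 0.14, adjusted p = 3.6e-14), 2.61 (SE 0.14, adjusted p = 7.17e-15) and 1.02 (SE 0.14, adjusted p = 2.49e-07) on these days. Adamts12 read 4.94, 7.35, 6.51 and 3.76 at day 0, 5.24, 5.16, 5.07 and 4.88 at day 3, which overlapped and was not called, and 19.9, 20.1, 18.7 and 15.6 at day 7 (1.72, SE 0.15, adjusted p = 1.05e-10), and remained above day 0 at 9.94, 10.7, 11.02 and 10.9 at day 14 (0.79, SE 0.14, adjusted p = 2.62e-05).

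Of the other ADAMTS genes, Adamts16 had the sharpest middle peak. At day 0 it read 0.00581, 0.221, 0.173 and 0.00309, with 1 count in the library of replicate 4 and 79 in that of replicate 2. It was 0.0204, 0.00291, 0.0145 and 0.00582 at day 3 (1 to 7 counts, -3.13, SE 0.75, adjusted p = 0.000626), 0.796, 0.904, 0.787 and 0.887 at day 7 and 0.889, 1.07, 1.06 and 1.01 at day 10, far above every earlier library. The log2 fold changes were 3.04 (SE 0.47, adjusted p = 4.94e-06) at day 7 and 3.25 (SE 0.47, adjusted p = 1.91e-06) at day 10. By day 12 it had fallen by 2.32 on the log2 scale (adjusted p = 0.000111).

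Adamts17, a microfibril-associated enzyme, read 0.122, 0.227, 0.204 and 0.0916 at day 0, 0.0584, 0.0685, 0.0607 and 0.0811 at day 3 (-1.21, SE 0.22, adjusted p = 2.6e-05), 1.10, 0.959, 1.09 and 1.09 at day 10 (2.66, SE 0.19, adjusted p = 3.06e-12) and 0.529, 0.771, 0.771 and 0.760 at day 14 (2.00, SE 0.19, adjusted p = 3.31e-10). It was lower than all day 0 libraries at day 3 and above them from day 7. Adamts19 had 3 to 8 counts a library at day 0 and 59 to 79 at day 5 (3.81, SE 0.44, adjusted p = 2e-08), and stayed there to day 14 (3.58, SE 0.44, adjusted p = 6.23e-08). Adamts6 was called higher on 6 of the 6 later days, and Adamts10 was lower at day 3 and higher at days 10, 12 and 14. Adamts13, which cuts von Willebrand factor and is made in the liver, had at most 8 counts in any library.

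Other genes that act with these proteases were counted from lists, beside 31.8% of all genes higher and 34.8% lower at day 3 and 28.2% and 34.5% at day 14. All 5 tested activators and inducers (Furin, Plau, Plaur, Plat and Bsg; Plg was too low) were higher at day 3 and 0 at day 14, when 1 was lower. The receptor gene Plaur had the highest value at day 3, 3.26 (SE 0.17, adjusted p = 1.96e-15), and Bsg the lowest, 0.21 (SE 0.06, adjusted p = 0.00325). At day 14 Furin (0.06, adjusted p = 0.486) and Plau (-0.64, SE 0.10, adjusted p = 3.06e-06) were the ends of the list.

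Among other inhibitors and clearance genes, 2 of 6 tested were higher, close to the share of all genes, and 4 lower at day 3. A2m, a broad protease inhibitor, was at 0 counts in all day 3 libraries and near the floor at day 0 (mean 0.00685 FPKM). At day 14, 0 were higher and 3 lower, with Spock1 at -0.27 (adjusted p = 0.449) the highest and A2m, again near the floor, the lowest.

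Of the 7 ADAMTS-like genes, which resemble ADAMTS proteins without the protease, 0 were higher and 5 lower at day 3, from Adamtsl3 at 0.11 (adjusted p = 0.7) to Papln at -2.34 (SE 0.14, adjusted p = 3.04e-14). At day 14, 0 were higher and 6 lower, from Papln at 0.12 (adjusted p = 0.417) to Adamtsl3 at -2.55 (SE 0.26, adjusted p = 1.84e-09). Their median was -1.58 at day 3, beside 1.57 for the 7 proteoglycanases.

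Of 8 tested membrane ADAM genes, 7 were higher and 1 lower at day 3, with Adam8, known from leukocytes, at 3.39 (SE 0.17, adjusted p = 4.89e-16) and Adam33 at -2.09 (SE 0.15, adjusted p = 1.15e-12). At day 14 Adam12 was still at 2.13 (SE 0.16, adjusted p = 1.02e-11) and Adam15 at -0.63 (SE 0.06, adjusted p = 3.35e-10), with 1 gene higher and 3 lower. Of 13 substrate genes, 3 were higher and 4 lower at day 3, near or below the shares of all genes (31.8% and 34.8%), between Vcan at 2.13 (SE 0.15, adjusted p = 6.08e-13) and Col7a1 at -1.46 (SE 0.14, adjusted p = 7.12e-10). At day 14, 4 were higher and 6 lower, between Acan at 4.85 (SE 0.39, adjusted p = 1.85e-11) and Comp at -1.95 (SE 0.29, adjusted p = 1.83e-06).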

How the data were processed

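RNA from 28 skin libraries (4 a day) was extracted with TRIzol and made into libraries with the VAHTS Universal V6 kit, and the submitters' processing notes name fastp, R 3.2.0 and the mm10 build. The aligner, the counter, the annotation and strand handling are not given in the sources used here. The authors deposited raw counts per gene and FPKM per gene, where FPKM is the count divided by a gene length and the library's total count, as checked on 14504 genes. Groups came from the day in the labels. The members and lists were chosen with earlier results of these data known.

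Counts were fitted with edgeR 4.0.16 (R 4.3.3, limma 3.58.1): TMM normalization, filterByExpr, 1 quasi-likelihood fit with a mean per day over all libraries, and Benjamini-Hochberg adjustment over 18107 genes. Calls needed an adjusted p under 0.05, and the fold limit of 1.5 (log2) is that of the study. Levels were taken from the deposited FPKM. With 36706513 to 40655764 counts a library, a count of 0 allows up to 3 counts (counting error only). Values in every library were given for the 28 members past the fold limit on at least 1 day against day 0 with a mean of at least 1 FPKM on their highest day and, in any case, for Mmp2, Mmp9, Mmp14 and the Timp genes. The others were given by counts and means. Of each list of related genes, the tested genes with the highest and the lowest fold change on days 3 and 14 were named, except 1 that is not reported here. Alternatives were DESeq2 1.42.0, no composition normalization, no count filter, limma on log2(FPKM + 1) and log2(FPKM + 0.1), other limits, each pair of days alone, a replicate block, the Xist level (a transcript of females) as a covariate and each library left out. The fit was tested on simulated data before use. Start sites, promoter windows and positions came from RefSeq tables on GRCm38.p6.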

Additional observations from a re-analysis of the deposited data

Results flagged for a closer look

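In 196 groups of 4 libraries (28 genes on 7 days), 13 held 1 library whose FPKM stood apart from the 3 others by Dixon's criterion, which is 6.63%, and chance flags about 1 in 20 groups. On day 0, replicate 1 was high for Adamts18 (0.2399 against 0.06615 to 0.08566) and Mmp19 (15.84 against 8.817 to 9.57), and it is also the highest day 0 library of Timp1 and Mmp12. On day 3, replicate 3 was high for Mmp25 (2.792 against 2.389 to 2.451). On day 5, replicate 4 was low for both Adamts12 (6.673 against 10.85 to 11.65) and Adamts4 (7.979 against 9.728 to 10.04).

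On day 7, replicate 1 was high for Timp3 (63.17 against 57.51 to 57.98). On day 10, replicate 1 was low for Timp4 (4.179 against 4.805 to 4.825), replicate 2 low for Adamts17 (0.9586 against 1.089 to 1.102) and replicate 3 high for Mmp12 (106.9 against 91.47 to 93.86). On day 12, replicate 1 was low for Timp4 (4.579 against 5.122 to 5.19) and replicate 3 high for Mmp27 (10.3 against 7.545 to 7.877). On day 14, replicate 1 was low for Adamts17 (0.5293 against 0.7602 to 0.7715) and replicate 3 low for Mmp12 (55.4 against 71.26 to 73.49).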

How the results depend on the processing

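The counts of called members against day 0 and from day to day stayed within 1.5 times the reported count under every alternative, except that at an adjusted p under 0.01 the members called at day 14 against day 12 were 18. Past the fold limit, limma on log2(FPKM + 1), a scale that understates the change of low genes, gave 12 members at day 3, 8 at day 5, 9 at day 7, 7 at day 10 and 4 at day 14, and limma on log2(FPKM + 0.1) gave 7 at day 14. A fold limit of 1 gave 17 at day 12 and 17 at day 14, and no composition normalization, which shifted the median of all genes by 0.14 at day 12 and 0.13 at day 14, gave 11 at day 12. With 1 library left out, members called at days 3, 5, 7, 10, 12 and 14 ranged over 31 to 34, 30 to 34, 33 to 36, 28 to 30, 24 to 28 and 28 to 32, and past the fold limit over 21 to 23, 13 to 16, 16 to 18, 16 to 17, 7 to 10 and 8 to 12. From day to day these ranges were 26 to 27 (day 5 against day 3), 18 to 21, 17 to 19, 24 to 24 and 20 to 26 (day 14 against day 12).

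Of 144 named fold changes, 2 values turned sign outside the leave-one-out fits: Mmp12 at day 3 was 0.0627 and 0.14 in limma with pseudocounts of 1 and 0.1, and Timp3 at day 12 was 0.094 without composition normalization and 0.0945 and 0.10 in limma. With 1 library left out, Mmp12 at day 3 ranged from -0.56 to 0.63 and Timp1 at day 14 from -0.12 to 0.74, and the latter was -0.12, -0.12 and -0.02 (without day 0 replicates 2 and 3 and day 14 replicate 4). The cause was not tested. Over all alternatives without a left-out library, 1279 values kept their direction and side of the threshold, 9 lost the call, 1 gained it and 5 turned sign. Replicate numbers did not pair the libraries (correlations of deviations between -0.08 and 0.18), and a replicate block gave 33, 31, 34, 30, 27 and 28 called members at days 3 to 14 and 26, 21, 19, 24 and 28 from day to day. Xist, a transcript of females, had 0 to 13 counts in every library, and the covariate was almost empty.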
